A study of Arabidopsis thaliana with 12 samples.

Results

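Transcripts of 6 nuclear genes for organelle RNA factors were followed on 12 arrays of Arabidopsis thaliana, 6 of the flu mutant and 6 of the wild type (WT). They are AT3G22150, AT5G39980, AT4G04370, AT2G30100, AT3G46950 and AT4G09040. Both genotypes were of the Landsberg ecotype and had spent 12 h in darkness before harvest. The flu plants lack FLU, a brake on chlorophyll synthesis; in the dark such plants are known to build up the precursor protochlorophyllide. The sources used here give no allele, plant age or tissue, nor how the arrays were made. It is not stated that each array stands for plants of its own, so spreads between arrays may be technical.

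The 6 genes are 6 of 692 features that list exactly 1 gene, in a table of 3439 features. They were chosen by their protein family and on the difference between flu and WT in these same arrays. That difference is therefore described below without a test. No rise or fall of these 6 genes is claimed as independent evidence. Whether fewer cells of a type or less RNA per cell lies behind a lower value cannot be told apart from these values.

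Plastids and mitochondria keep small genomes whose transcripts are edited, spliced, trimmed and stabilised by proteins made from nuclear genes. Pentatricopeptide repeat (PPR) proteins are built from repeats that together read a stretch of organelle RNA, and most act on 1 or a few transcripts. mTERF proteins, named after a human mitochondrial transcription termination factor, bind organelle nucleic acids and act in transcription and splicing. Proteins with RNA recognition motifs (RRM) bind RNA more broadly, and those of plastids help to edit and stabilise many transcripts. Among the 6 genes, AT3G22150, AT5G39980, AT4G04370 and AT2G30100 encode PPR proteins. AT3G46950 encodes an mTERF protein and AT4G09040 an RRM protein.

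Values are linear intensities on the authors' scale, from 0 to about 100, whose scaling is unknown. The median of an array was 0.443 to 0.491 for WT and 0.426 to 0.442 for flu, and 108 to 165 features per array were listed at 0. Arrays 1 and 2, 3 and 4, and 5 and 6 of a genotype resembled each other (Spearman correlations of 0.909 to 0.967) and are called couples, a name that is not in the labels. Arrays of different couples correlated at 0.780 to 0.872 in WT and at 0.893 to 0.942 in flu, where the range overlaps that within couples. Means are given with the SD of 3 couple means. Same-numbered arrays of the 2 genotypes deviated together (r from 0.368 to 0.539 over all features), so values are also compared by number. Of 17 marker genes of leaf, root, seed and pollen, 3 photosynthesis genes (PSAN, LHB1B2 and PSBW) had a feature of their own, and none of root, seed or pollen did. Log2 changes are flu minus WT on values raised to a floor of 0.0236 and quantile normalised, unless called as deposited.

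AT2G30100, AT4G09040 and AT3G46950 had the groups that stood most clearly apart. The first pair was higher in flu by over 2 units on the log2 scale, and the mTERF gene AT3G46950 was lower by over 1. In each, the flu arrays lay on 1 side of all WT arrays, which by itself fixes the direction of all 6 same-numbered pairs. AT3G22150 was also higher without overlap, but by an amount that varied with the couple. AT5G39980 was higher in 6 of 6 pairs, with groups that overlapped, and AT4G04370 read 0 on arrays 1 and 2 of flu and WT alike. Of the 6 genes, 3 were thus higher and 1 lower with no overlap of the deposited values. Over all features with 1 gene these shares were 12.3% and 22.3%; since the genes were chosen on this contrast, nothing is read from the comparison.

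The PPR gene AT2G30100 had deposited intensities of 0.578, 0.637, 0.540, 0.501, 0.504 and 0.347 in WT arrays 1 to 6. In flu arrays 1 to 6 they were 2.52, 2.26, 2.29, 2.35, 2.33 and 2.21. The lowest flu array was thus far above the highest WT array, and the flu arrays were tightly grouped. The mean was 0.518 ± 0.0910 in WT and 2.32 ± 0.0625 in flu (SD, n = 3 couple means), a ratio of 4.49. The log2 change was 2.25, the 10th largest in size among the 692 features with 1 gene. Between same-numbered arrays it ran from 1.81 to 2.76. The ratio of flu to WT was 3.94 in the first couple, 4.45 in the second and 5.32 in the third, so every couple showed it. Its spread within genotypes, an SD of 0.24 on the log2 scale, compares with a median of 0.34 over features with 1 gene.

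AT4G09040, the RRM gene, had deposited intensities of 0.3002, 0.137, 0.321, 0.225, 0.209 and 0.211 in WT arrays 1 to 6. The flu arrays stood at 1.06, 1.04, 0.930, 0.837, 1.08 and 0.889. All flu arrays exceeded all WT arrays, and WT array 2 was the lowest of the 12. The mean was 0.234 ± 0.0341 in WT and 0.972 ± 0.0823 in flu (n = 3 couple means), a ratio of 4.16. Its log2 change of 2.33 was the 8th largest in size among features with 1 gene. The same-numbered pairs gave 1.80 to 3.14, the highest in the pair that holds WT array 2. By couple, the ratio was 4.79, 3.24 and 4.70, lowest in arrays 3 and 4.

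The mTERF gene AT3G46950 ran the other way. Its deposited intensities in WT arrays 1 to 6 were 0.665, 0.835, 0.873, 1.04, 0.969 and 0.967. In flu they were 0.311, 0.299, 0.346, 0.299, 0.388 and 0.355. Every flu array lay below every WT array. The mean was 0.892 ± 0.123 in WT and 0.333 ± 0.0344 in flu (n = 3 couple means), a ratio of 0.373, and the log2 change was -1.28. Same-numbered differences lay between -1.64 and -0.998, the narrowest range of the 6 genes. The ratios by couple were 0.407, 0.337 and 0.384. Of the 6 genes it also had the smallest spread within genotypes, at an SD of 0.18 on the log2 scale.

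A second feature lists AT3G46950 together with 3 other genes, AT1G62490, AT1G61990 and AT1G61960, and cannot be assigned to any of them. On that feature the genotypes overlapped, with a deposited range of 0.369 to 0.775 in WT and 0.388 to 0.638 in flu. Its couple means were 0.393, 0.750 and 0.675 in WT and 0.620, 0.469 and 0.441 in flu. Flu was therefore higher than WT in the first couple and lower in the other couples. The log2 change over 12 arrays was -0.12 (limma adjusted p = 0.64), and 0.50 with couples averaged and strip means subtracted, as explained further on. The lower value of flu on the feature of AT3G46950 alone was not shared by the feature that pools it with the other genes.

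**Figure D1:**
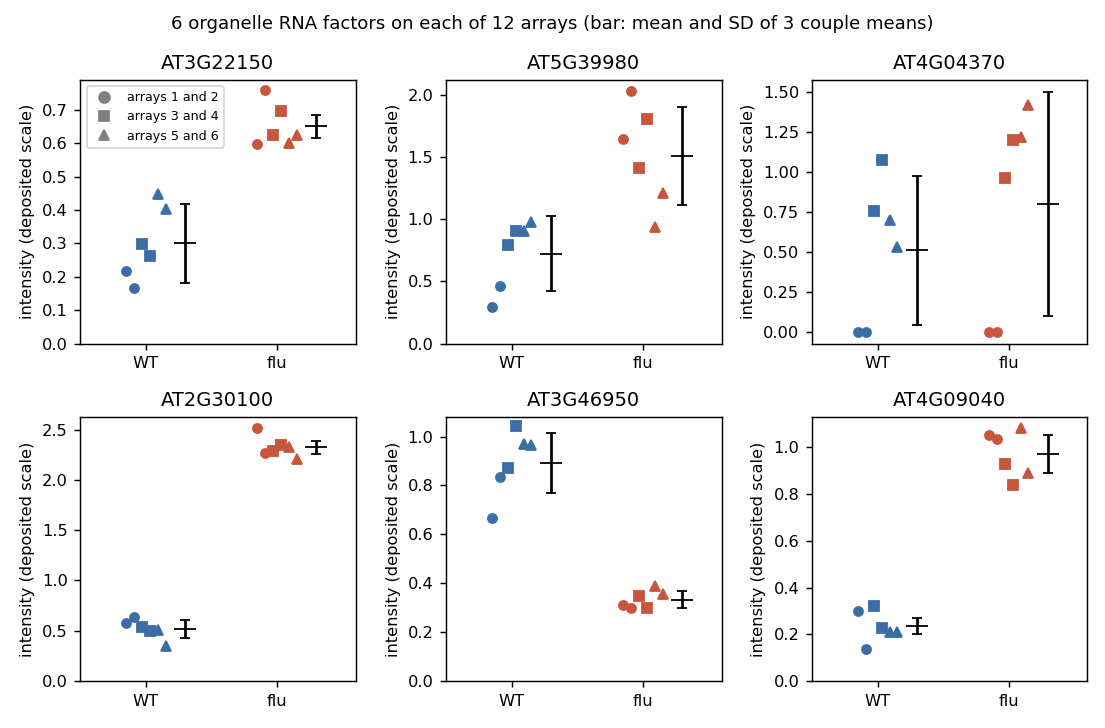
Deposited intensity (linear, authors' scale) of each of the 6 genes on 6 WT and 6 flu arrays. Symbols mark the couple, and bars give the mean and SD of 3 couple means. AT2G30100, AT4G09040 and AT3G22150 are higher and AT3G46950 lower in flu with no overlap, while AT5G39980 overlaps and AT4G04370 is at 0 on arrays 1 and 2 of both genotypes.

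AT3G22150 and AT5G39980, both PPR genes, were higher in flu by amounts that depended on the couple. AT3G22150 had WT intensities of 0.218, 0.168, 0.298, 0.263, 0.449 and 0.405 in arrays 1 to 6. Its flu intensities were 0.599, 0.761, 0.6246, 0.697, 0.600 and 0.626. The flu arrays were alike, and the unevenness lay in WT, where arrays 5 and 6 were the brightest. The mean was 0.3002 ± 0.118 in WT and 0.651 ± 0.0347 in flu (n = 3 couple means), a ratio of 2.17 and a log2 change of 1.38. The ratio was 3.52 in the first couple, 2.35 in the second and 1.44 in the third. On the log2 scale same-numbered differences ran from 0.53 to 2.37.

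AT5G39980 had WT intensities of 0.292, 0.462, 0.790, 0.903, 0.906 and 0.975 in arrays 1 to 6. The flu intensities were 1.65, 2.04, 1.41, 1.81, 0.941 and 1.21. Here both genotypes were uneven, in opposite ways. The first couple was the dimmest in WT and the brightest in flu, and flu array 5 lay below WT array 6. The mean was 0.721 ± 0.302 in WT and 1.51 ± 0.393 in flu (n = 3 couple means), a ratio of 2.09 and a log2 change of 1.22. The ratio was 4.88 in the first couple, 1.90 in the second and 1.14 in the third. Same-numbered differences covered 0.14 to 2.57 on the log2 scale, a range of 2.43 against a median range of 1.06 over features with 1 gene. Among the 692 features with 1 gene, 92.1% had a range no wider than this, against 82.7% for AT3G22150, 42.8% for AT2G30100 and 17.9% for AT3G46950. Without WT arrays 1 and 2 its log2 change was 0.79, so that couple of WT carried much of its size.

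**Figure D2:**
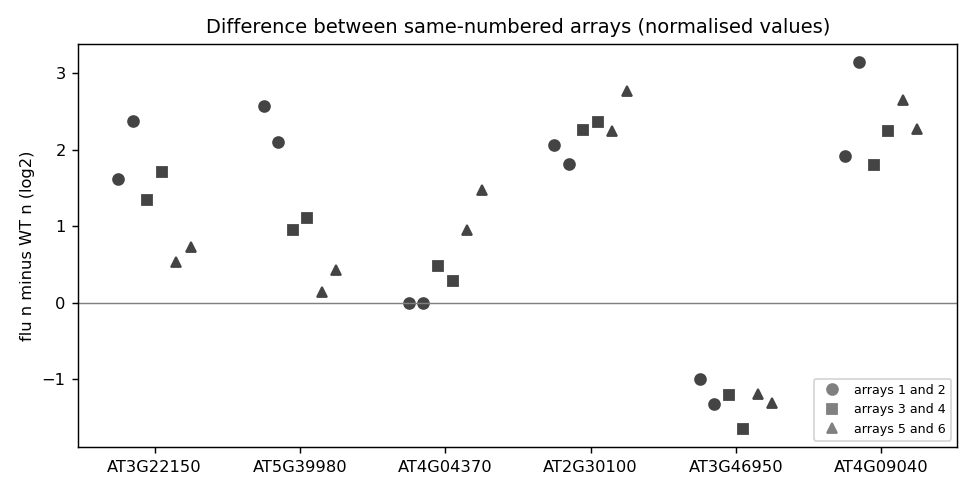
Difference between flu and WT arrays of the same number (log2, normalised values) for each of the 6 genes, with symbols for the couple. AT3G46950 keeps between -1.64 and -0.998, whereas AT5G39980 covers 0.14 to 2.57 and AT4G04370 lies at 0 for arrays 1 and 2, where both genotypes are at the floor.

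AT4G04370, a PPR gene, had the most uneven feature of the 6. It was listed at 0 on arrays 1 and 2 of both genotypes. WT arrays 3 to 6 read 0.751, 1.07, 0.698 and 0.531, and flu arrays 3 to 6 read 0.962, 1.20, 1.22 and 1.41. In the 8 arrays with a reading, flu exceeded WT at every number, but flu array 3 lay below WT array 4. Its spread within genotypes, an SD of 2.76 on the log2 scale, was the 1st in rank among all 3439 features. The zeros were raised to the floor and stood at -5.41 after normalisation, so the size of this spread depends on the floor. A value of 0 can be a failed reading, and for the first couple no fold can be given.

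The log2 change of AT4G04370 over 12 arrays, 0.53, includes 4 arrays at the floor. Without arrays 1 and 2 of both genotypes it was 0.80, with deposited means of 0.763 in WT and 1.20 in flu (4 arrays each). In the second couple the ratio was 1.18 and in the third 2.14. Of the whole table, 53 features were at 0 on arrays 1 and 2 of both genotypes, and AT4G04370 was the 1 feature among them that was above 0 on all the other 8 arrays. For the second couple 1 feature, with no single gene, had the matching pattern, and for the third couple 0 features did. The change of AT4G04370 turned to -1.11 when WT arrays 1 and 2 alone were left out. The gene's pattern of zeros thus followed the array number and not the genotype.

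The difference between flu and WT also varied with the feature number. Numbers were sorted into 48 strips of 6 neighbouring numbers that start again once all 48 have passed, and all features of a strip were averaged. AT2G30100, AT3G22150, AT4G09040 and AT5G39980 lay in strips 37, 38, 39 and 42, whose mean log2 changes were 0.46, 0.58, 0.56 and 0.37. AT3G46950 lay in strip 2, at a mean of -0.54. These 5 genes therefore differed in the same direction as their strips, and by more. AT4G04370 lay in strip 7, at -0.67, and was higher in flu against its strip. Of all 692 features with 1 gene, 480 (69.4%) shared the sign of their strip.

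With couples averaged and the mean deviation of each strip subtracted, AT2G30100 stood at 1.78 and AT4G09040 at 1.78 on the log2 scale. AT3G22150 stood at 0.80, AT5G39980 at 0.85 and AT3G46950 at -0.74. AT4G04370 moved from 0.53 to 1.20, with 0.77, 0.98 and 1.85 in couples 1, 2 and 3. The 0.77 of couple 1 comes from the strip mean alone, as both genotypes were at the floor there. The 1.20 is thus not a measured change. Subtraction moved each gene by the mean of its strip, and all 6 kept their direction. The part of the strips in these differences was not tested.

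The remainder was again uneven between couples. For AT5G39980 it was 1.95, 0.58 and 0.01 on the log2 scale in couples 1, 2 and 3, and for AT3G22150 it was 1.35, 0.98 and 0.07. For both genes the value was lowest in arrays 5 and 6. AT2G30100 kept 1.36, 2.002 and 1.99, and AT4G09040 kept 1.97, 1.45 and 1.90. AT3G46950 kept -0.67, -0.90 and -0.65. These are descriptions of the contrast that chose the genes.

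**Figure D3:**
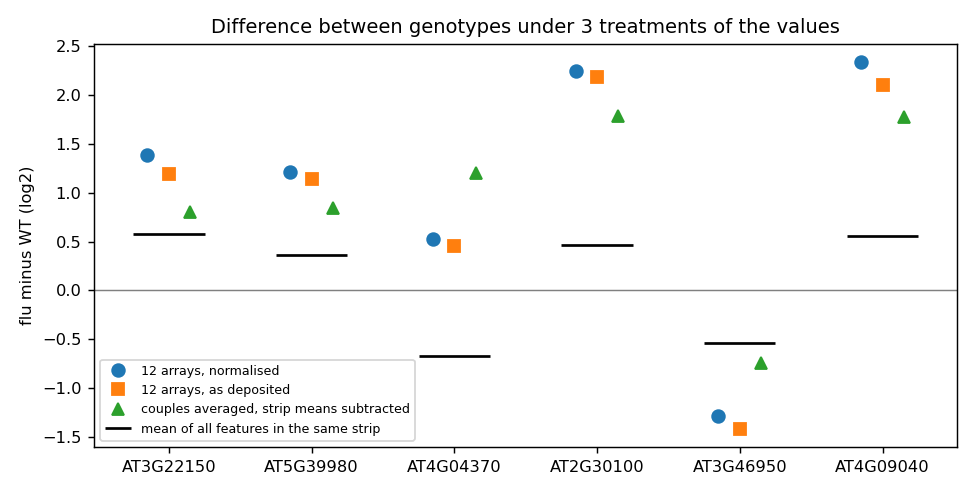
Flu minus WT (log2) of each of the 6 genes over 12 normalised arrays, over 12 arrays as deposited, and with couples averaged and strip means subtracted; black lines give the mean of all features in the gene's strip. AT2G30100 and AT4G09040 stay at 1.78 after subtraction. AT4G04370 moves up because its strip has a mean of -0.67, also in arrays 1 and 2, where it has no reading.

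**Figure D4:**
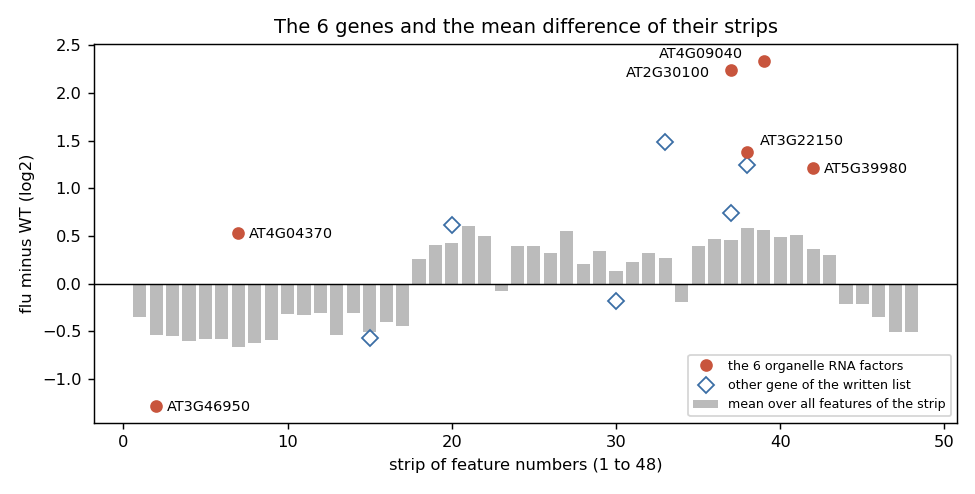
Mean log2 change of each of 48 strips (grey bars), with the 6 genes (filled circles) and the 6 other measured genes of the written list (open diamonds) at their strips. AT2G30100, AT3G22150, AT4G09040 and AT5G39980 lie in strips 37 to 42, whose means are positive, while AT4G04370 lies above 0 in strip 7 and CRR41, of the written list, in strip 33.

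Deviations from the genotype mean, which do not hold the difference between flu and WT, were set side by side over the 12 arrays. The arrays come in 6 couples and share their normalisation, so correlations are descriptions only. AT3G22150 and AT5G39980 deviated together (r = 0.66, Spearman 0.71), and AT2G30100 ran opposite to both (r = -0.72 and -0.64). AT3G46950 and AT4G04370 had r = 0.65. Without arrays 1 and 2 of both genotypes these 4 values were 0.35, -0.37, -0.21 and 0.25. Other pairs moved as far when those arrays were left out. AT4G09040 and AT5G39980 went from r = -0.23 to -0.74, AT3G22150 and AT4G04370 from 0.37 to -0.66, and AT5G39980 and AT3G46950 from 0.41 to -0.62. The likeness between the 6 genes thus depended on which arrays were compared.

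Among 623 other features with 1 gene and a reading on every array, AT3G26730 and AT3G15140 deviated most like AT3G22150 (r = 0.96 and 0.92, and 0.97 and 0.97 without arrays 1 and 2). AT3G02690 and AT1G01250 were most like AT2G30100 (r = 0.96 and 0.90, and 0.93 and 0.91 without those arrays). For both genes r thus stayed high without the first couple. Spearman correlations over all arrays were lower, at 0.78 and 0.84 for AT3G22150 and 0.72 and 0.73 for AT2G30100. Without arrays 1 and 2, deviations were taken anew from the genotype means of arrays 3 to 6. On the normalised log2 scale, AT2G30100 stood at -0.99, -1.11, -1.02 and -1.61 in WT arrays 3 to 6. In flu it stood at 1.15 to 1.26, so r leaned mostly on WT array 6. AT3G22150 stood at -1.99, -2.20, -1.21 and -1.35 in WT arrays 3 to 6 and at -0.68 to -0.49 in flu. Its r thus leaned on the contrast of WT arrays 3 and 4 with WT arrays 5 and 6. AT3G26730 and AT3G02690 differed little between genotypes, at log2 changes of 0.25 and 0.07, while AT3G15140 and AT1G01250 stood at 1.44 and 1.53.

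For the other 4 genes the closest features lost likeness when the first couple was left out. AT1G76240 and NdhN (AT5G58260), a subunit of the thylakoid NDH complex, were closest to AT4G04370 (r = 0.98 and 0.97), with 0.58 and 0.05 without arrays 1 and 2. AT4G31530 and AT3G13150 were closest to AT5G39980 (r = 0.91 and 0.89, then 0.60 and 0.43). AILP1 (AT5G19140) and AT2G28200 were closest to AT3G46950 (r = 0.84 and 0.83, then 0.66 and 0.54). AT3G19120 and AT3G22690, the latter a PPR gene, were closest to AT4G09040 (r = 0.87 and 0.72, then 0.58 and 0.38).

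Other genes of organelle RNA metabolism came from a written list of 86 loci, of which 6 had a feature of their own. Genes of this kind that the list leaves out were not counted. Over 12 arrays 3 of these 6 were higher and 1 was lower in flu (limma, Benjamini-Hochberg adjusted over all 3439 features). On values as deposited, without quantile normalisation, 2 were higher and 2 lower, as CRR21 no longer passed (adjusted p = 0.058) and OTP85 did (0.033). Of all features with 1 gene, 23.1% were higher and 26.6% lower, 49.7% in all. The counts of 6 genes are too few to set against those shares. A change is called a rise or a fall where it also passed with couples averaged and with strip means subtracted too, in the same direction. By that rule 2 of the 6 rose and 0 fell, against 19.9% of features with 1 gene in either direction. The median log2 change of the 6 was 0.68, against 0.00 over features with 1 gene, and 0.24 against -0.10 with couples averaged and strip means subtracted. Without CRR41, a listing error described further on, 2 of 5 were higher and 1 lower over 12 arrays, with a median of 0.62, or 0.20 with couples averaged and strip means subtracted.

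AT5G55580 (mTERF9), of the same protein family as AT3G46950, rose. Its deposited intensities were 0.436, 0.543, 0.407, 0.441, 0.357 and 0.369 in WT arrays 1 to 6 and 0.964, 1.17, 0.828, 0.916, 0.793 and 0.939 in flu arrays 1 to 6. The groups did not overlap, so flu was necessarily higher at every number. The mean was 0.426 ± 0.0632 in WT and 0.934 ± 0.113 in flu (n = 3 couple means), with a log2 change of 1.25 ± 0.13 (SE, limma adjusted p = 1.1e-05). It lay in strip 38, beside AT3G22150, and stood at 0.67 (adjusted p = 0.030) with couples averaged and strip means subtracted. AT5G55580 and AT3G46950 thus differed in opposite directions between genotypes, as did the means of their strips (0.58 and -0.54). AT3G46950 was chosen on this contrast, and the feature that pools it with other genes did not share its lower value.

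CRR41 rose from 0.307 ± 0.0720 in WT to 0.749 ± 0.0205 in flu (n = 3 couple means). Over 12 arrays counted singly, its log2 change was 1.49 ± 0.15 (SE, limma adjusted p = 7.8e-06). With couples averaged the limma adjusted p was 0.0059. The change was 1.22 with couples averaged and strip means subtracted (adjusted p = 0.0057). CRR41 is known as an assembly factor of the NDH complex and not as a PPR protein, and its place on the list was an error. Without it, 1 of 5 listed genes rose. The 4 that did not pass the rule are named with their values known. CRR21 and OTP70, PPR proteins of plastid transcript processing, passed over 12 arrays at 0.74 and -0.57. Their adjusted p was 0.16 and 0.15 with couples averaged, and CRR21 had 0.065 with the replicate number as a block. With strip means subtracted as well they stood at 0.28 and -0.06. CRR21 lost its pass when any 1 of WT arrays 2, 5 and 6 or flu arrays 1, 2, 5 and 6 was left out. Its log2 change was 0.48 when WT arrays 5 and 6 were both left out (limma adjusted p = 0.12). It was 1.105 without WT arrays 3 and 4 (0.00059). That of OTP70 was -0.34 when WT arrays 1 and 2 were left out (0.073) and -0.82 without WT arrays 5 and 6 (0.00026). The size of both thus depended on which WT couple was left out. OTP85 and AT3G22690, PPR genes too, stood at -0.18 and 0.62 over 12 arrays (limma adjusted p = 0.40 and 0.15). AT3G22690 was at 0.372 without WT array 2, 0.24 as deposited and 0.197 with strip means subtracted. It passed in 1 alternative, couples averaged with couple number as a block (adjusted p = 0.034).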

How the data were processed

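One series of 12 arrays was used, 6 WT and 6 flu. The deposited table holds an intensity per feature and array, on a linear scale. How the authors made and scaled these values is not given in the sources used here, and the file headers hold only sample names. Features were named from the platform table where it lists exactly 1 gene, and 690 of 692 such features matched the RefSeq table of assembly TAIR10.1. No coordinates are printed, since the build behind the array is not named.

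Values were raised to the 1st percentile of positive values (0.0236), log2 transformed and quantile normalised, and fitted over all 3439 features with limma 3.58.1 in R 4.3.3 (lmFit, eBayes, two-sided, adjusted p below 0.05, no block). The fit was tested on simulated data whose noise was independent between arrays, without couples or strips. That test cannot show whether the p-values hold under those patterns. Background readings were not analysed here, and the number of arrays limits the precision.

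The 6 genes, the lists and the naming rule were chosen with earlier results of these data known, couples and strips included. The rule named the 6 genes, for each the 2 features with the most similar deviations, and up to 3 risen and 3 fallen genes of the written list. Replicate numbers come from the sample titles. Same-numbered WT and flu arrays correlated in their deviations at 0.368 to 0.539 in all 6 pairs, so values were also compared by number. The main fit and the rule for a rise or a fall used no block, and fits with a block were alternatives. No feature was analysed here for FLU, so the mutated gene did not check the labels. Alternatives were 31 other settings of floor, normalisation, filter, block, couples, strips and left-out arrays.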

Additional observations from a re-analysis of the deposited data

Results flagged for a closer look

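Of 24 groups of 6 arrays tested (12 genes in 2 genotypes), 1 held an array far from the other 5, where chance flags about 1 in 20. CRR41 was at -0.13 on the normalised log2 scale in flu array 5, against -0.51 to -0.38 in the other flu arrays (0.864 as deposited).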

How the results depend on the processing

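All alternatives were listed with earlier results of these data known. The 1796 features that passed over 12 arrays became 1193 with couples averaged and 956 when strip means were subtracted as well. With the couple number added to both as a block, 1177 passed. With the replicate block alone 1966 passed, and 1539 to 1875 in fits that left out an array or a couple. A fit of only the features above the median intensity gave 1089, a count out of fewer features that cannot be set against 1796. Without normalisation there were 651 higher and 1261 lower, against 791 and 1005, and the median log2 change of all features was -0.20 against -0.04. Of the 6 other listed genes, CRR41 included, 4 passed over 12 arrays (3 of 5 without CRR41, which passed in every setting). The count was 3 with the replicate block, where CRR21 lost its pass. It was also 3 with couples averaged and the couple number as a block, where AT3G22690 gained one. It was 2 with couples averaged, 2 with strip means subtracted and 2 with both. With both and the couple number as a block it was 2, and with arrays or couples left out 2 to 4. It was 2 without WT arrays 1 and 2, flu arrays 1 and 2, or flu arrays 3 and 4.

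AT2G30100 ran from 1.78 to 2.41 over its alternatives, AT4G09040 from 1.78 to 2.44, AT3G22150 from 0.80 to 1.72, AT5G39980 from 0.79 to 1.48 and AT3G46950 from -1.41 to -0.74, all without a change of sign. AT4G04370 turned sign when arrays were left out of 1 genotype, since the zeros then no longer balance. It was -0.12 without WT array 1 or WT array 2, -1.11 without both, -0.34 when flu arrays 3 and 4 were left out and -0.50 for flu arrays 5 and 6, over a range of -1.11 to 2.43. OTP85 ran from -0.346 to 0.044 over fits with arrays left out, the highest without WT arrays 1 and 2, and stood at -0.43 (adjusted p = 0.033) as deposited; the cause was not tested.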
